A study of Mus musculus with 18 samples.

Results

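The genes followed here are 43 interferon-stimulated genes, listed by gene name as widely used members of the interferon response, with no measured value in the rule. The list was nevertheless chosen with earlier results of these data known. These genes were compared between Fabp4 genotypes in mouse bone marrow cells measured by bulk RNA sequencing. The series title names leukemia stem cells and hematopoietic stem cells as the question behind the Fabp4 deletion. Of the 43 genes, 41 were among the 22017 genes of an in vitro table, and 39 were among the 13195 genes of a bone marrow table. Ifit3b and Mx1 were not in the in vitro table, and Mx1, Rsad2, Ifi44 and Gbp2 were not in the bone marrow table.

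Both sets held cells homozygous (KO) or heterozygous (HET) for a Fabp4 knockout, or wild type (WT). The cells of the in vitro set were sorted from what the labels call vitro bone marrow, with 3 libraries per genotype. The bone marrow set was sorted from bone marrow and had 3 KO, 2 HET and 3 WT libraries here, since HET replicate 2 was not used here. The labels name neither the sorted population, the culture, the way the knockout was made nor the age of the mice, and give no treatment other than the sort. Values are FPKM, fragments scaled by transcript length and by library size, so levels of different genes can be compared per length. In bulk RNA, fewer cells of a type and less RNA per cell cannot be told apart.

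Interferons bind receptors on the cell surface and activate JAK kinases, which phosphorylate STAT proteins. Type I interferon leads to a complex holding STAT2 and IRF9 that binds the interferon-stimulated response element (ISRE), and interferon gamma acts through the gamma-activated site (GAS). The induced genes encode sensors of viral nucleic acid, proteins that block viral entry or replication, GTPases that act on intracellular vacuoles, and the machinery that presents peptides on MHC class I. In bone marrow, interferon is known to drive quiescent hematopoietic stem cells into the cell cycle, and stem cells keep some of these genes on without infection.

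Promoter windows of 34 of the 43 genes were found in the RefSeq table of build GRCm38.p6 (mm10), each with 250 bases before the start and 50 after it. The ISRE core, searched on both strands as 2 copies of TTTC with any 2 bases between them, stood in 19 of the 34 windows (55.9%), against 1079 of the 27025 genes with a promoter in the table (3.99%). The palindromic GAS sequence TTCNNNGAA stood in 11 of the 34 (32.4%), against 9.55% of all genes. Ifitm3, which encodes a membrane protein that blocks the fusion of viruses with the endosome, was the only member past the threshold in any comparison, so its promoter is shown whole down to 30 bases past the start. It lies on the minus strand at chr7:141010715-141010994, and the capitals mark both matches to the reverse complement of the ISRE core. Both lie after the start, with first bases at positions 3 and 20. A GAS match, not marked, ends inside the later one.
Ifitm3: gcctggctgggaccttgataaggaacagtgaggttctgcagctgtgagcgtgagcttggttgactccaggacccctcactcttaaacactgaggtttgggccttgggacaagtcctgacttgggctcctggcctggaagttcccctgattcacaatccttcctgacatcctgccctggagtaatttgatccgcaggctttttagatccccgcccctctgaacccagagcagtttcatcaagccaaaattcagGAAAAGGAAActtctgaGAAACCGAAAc
The Oas1g and Oas1a promoters are shown as 26 bases around the core because these neighbouring paralogs, on chromosome 5, had different values in HET cells. Isg15 and Gbp2 are shown as classical targets of type I interferon and of interferon gamma. The windows lie at chr5:120887608-120887633 for Oas1g, chr5:120907522-120907547 for Oas1a and chr4:156200873-156200898 for Isg15, all on the minus strand, and at chr3:142620596-142620621 on the plus strand for Gbp2. The capitals mark 1 core in each, and further matches overlap it in Oas1g, Oas1a and Isg15.
Oas1g: gggaaatgGAAACTGAAAatctactt
Oas1a: gggaaatgGAAACTGAAAatctactt
Isg15: aggaaaagGAAACCGAAAcagaaaat
Gbp2: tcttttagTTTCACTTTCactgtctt
The windows of Oas1g and Oas1a are the same letter for letter, and over the whole promoter 261 of 306 alignment columns (85.3%) were identical. Neither the ISRE core nor the GAS letters were found in the windows of Irf7, Irf9, Trim25, Oasl1, Oasl2, Ifi44, Xaf1, Ifi47, Psmb9 and Tap1. A match is a description of the letters, not a binding site. The Psmb9 and Tap1 windows share 275 bases, since the genes are read from opposite strands of chromosome 17.

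The targeted gene could not check the genotypes. Fabp4 was listed at 0 FPKM in all 3 KO in vitro libraries, at 0, 0.0676 and 0 in HET and at 0, 0.0326 and 0.330 in WT, and it was not analysed here in bone marrow. Depth, estimated from the steps of low FPKM values, ran between 30.7 and 36.7 M fragments for the in vitro libraries and between 3.94 and 35.1 M for those of bone marrow, where HET replicate 1 was the shallowest. Pairs of in vitro libraries had Spearman coefficients over genes between 0.962 and 0.970, and pairs of bone marrow libraries between 0.427 and 0.621. The 3 in vitro WT libraries held both Xist and Y-linked RNA, as did those of the other genotypes. In bone marrow, 4 of 5 sex-linked RNAs looked up (Xist and Y-linked ones) were above 0 in each KO library. HET libraries held 1 each, and WT libraries 1 or 2. None of the 3 tested passed the threshold in KO against WT, and the part of sex in the values of the members was not tested. Differences were tested with limma on log2(FPKM + 1) over all genes with at least 1 FPKM in at least 3 libraries of a table. That left 10877 genes in vitro, 33 of them members, and 7246 genes in bone marrow, 28 of them members. A gene was called at a Benjamini-Hochberg adjusted p under 0.05 over all genes tested.

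In vitro, the levels of these genes differed widely. Of the 41 members measured, 5 averaged at least 50 FPKM over the 9 libraries, namely Ifitm3, Psmb8, Psmb9, Bst2 and Tap1. Another 16 averaged 5 to 50 FPKM, 11 averaged 1 to 5, and 9 stayed under 1. The lowest tier held Ifit1, Ifit3, Oas1g, Oas2, Oasl1, Oasl2, Rtp4, Xaf1 and Ifi44, several of them genes that interferon is known to raise steeply. Ifi44 was listed at 0 in all libraries except WT replicate 1. The summed level of the 41 genes was 854 to 901 FPKM in KO libraries, 829 to 903 in HET and 820 to 962 in WT, so the genotypes overlapped. Interferon genes were near 0: of 15 looked up, Ifna11, Ifnab and Ifnz were in the table, and their sum was at most 0.121 FPKM in KO libraries, 0.195 in HET and 0.0742 in WT.

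**Figure D1:**
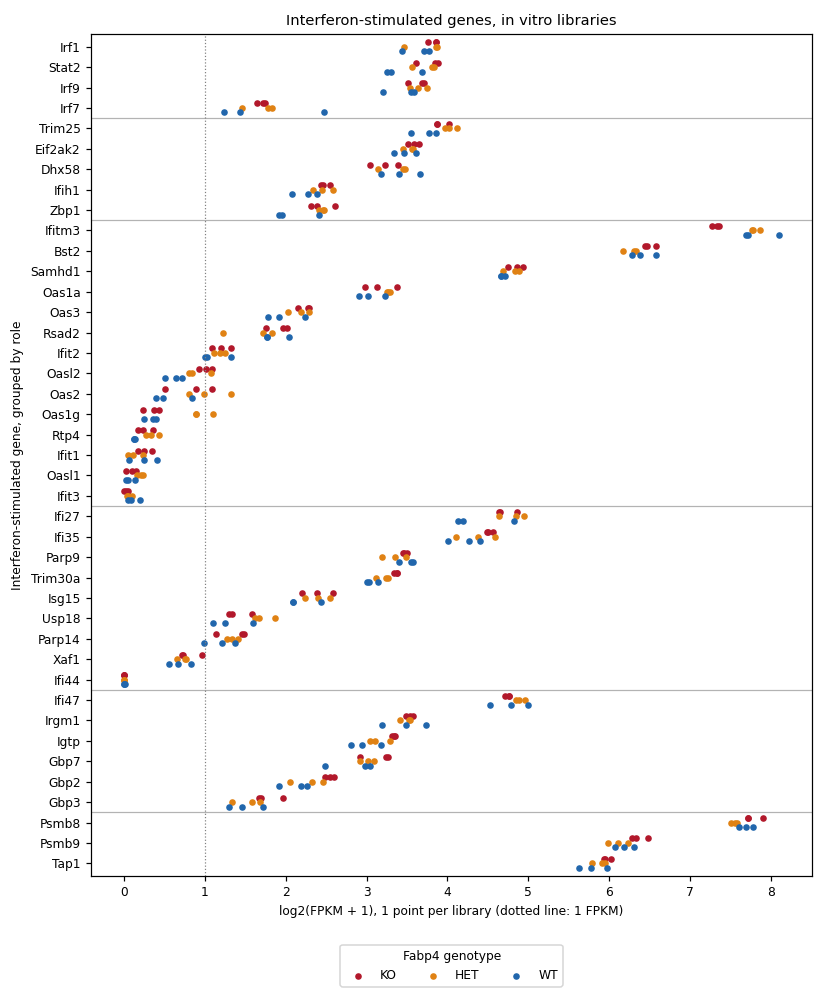
Level of each of the 41 interferon-stimulated genes in the in vitro table, in log2(FPKM + 1) on the horizontal axis, with 1 point per library coloured by Fabp4 genotype and the genes grouped by role. Ifitm3 stands out in the KO libraries, at 154 to 163 FPKM against 205 to 274 in WT, and Oas1g in the HET libraries, at 0.844 to 1.14 FPKM against 0.182 to 0.310 in WT.

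KO against WT cells in vitro asks whether loss of Fabp4 changes this set. Of the 33 members tested, 1 was called (3.03%), against 2.99% of all genes tested in this comparison, so the set was called about as often as any gene. The called gene was Ifitm3, which was lower in KO cells, against 1.63% of all genes called lower. No member was called higher, against 1.36% of all genes. Most members nevertheless had a small positive log2 change: 28 of 33 (84.8%), against 59.2% of all genes, with a median of 0.18 against 0.04 over all genes. Every uncalled member had a 95% interval of its log2 change within 1 unit either way, that is within a doubling or halving of FPKM + 1, with outer bounds of -0.57 and 0.70.

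Ifitm3 lies on chromosome 7 at 141009590 to 141010744. It had 163, 160 and 154 FPKM in KO libraries, 216, 233 and 220 in HET and 210, 205 and 274 in WT. All KO libraries lay below every HET and WT library, and HET and WT overlapped. The means were 159 ± 4.47 FPKM in KO, 223 ± 8.75 in HET and 230 ± 38.5 in WT (SD, n = 3 each). The KO mean was 0.693 times that of WT, and the log2 change was -0.51 (SE 0.10, limma adjusted p = 0.0220). Against HET, the log2 change in KO was -0.48 (SE 0.10, limma adjusted p = 0.0296), and HET against WT gave -0.03 (adjusted p = 0.881). These comparisons share libraries and do not support each other. The KO against WT call was lost without KO replicate 1 (adjusted p = 0.0783), without KO replicate 3 (0.109), with no filter on low values (0.0649) and in a fit of KO and WT libraries alone (0.0628), while the log2 change stayed between -0.59 and -0.38 under all 17 alternatives.

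Ifitm3 sits in a cluster of close paralogs, and the counting method is not given in the sources used here, so how reads were shared among them is unknown. Ifitm2 had 186, 197 and 184 FPKM in KO, 190, 205 and 196 in HET and 184, 200 and 255 in WT, with overlapping genotypes (KO against WT log2 change -0.16, limma adjusted p = 0.429). Ifitm1 was the most abundant of the family, at 1468, 1400 and 1461 FPKM in KO, 1560, 1699 and 1526 in HET and 1382, 1617 and 1882 in WT, and it overlapped too (-0.16, adjusted p = 0.401). WT replicate 3 was the highest WT library for all 3 genes. Ifitm6 followed another pattern, with 8.76, 5.47 and 7.17 FPKM in KO, 23.5, 27.0 and 25.2 in HET and 5.76, 9.27 and 10.6 in WT. It rose in HET against WT (log2 change 1.49, SE 0.19, limma adjusted p = 0.00119) and not in KO against WT (-0.21, adjusted p = 0.572).

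**Figure D2:**
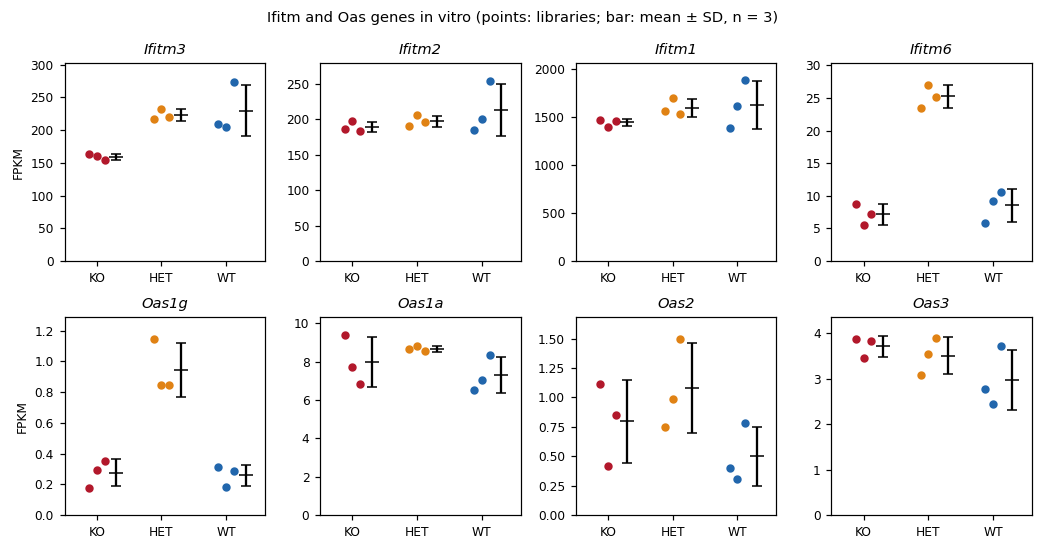
FPKM of 4 Ifitm and 4 Oas genes in the in vitro libraries (vertical axes start at 0), with a point per library and a bar for the mean ± SD (n = 3) of KO, HET and WT. Ifitm3 averaged 159 FPKM in KO against 230 in WT, Ifitm6 averaged 25.2 FPKM in HET against 8.55 in WT, and Oas1g lay at 0.844 to 1.14 FPKM in HET against 0.182 to 0.310 in WT, while Ifitm1, Ifitm2, Oas1a, Oas2 and Oas3 overlapped between KO and WT.

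Among the transcription factors, none of the 4 members was called. Stat2, the partner of IRF9 in the type I complex, had 13.8, 11.2 and 13.3 FPKM in KO, 10.8, 13.1 and 13.3 in HET and 11.9, 8.86 and 8.56 in WT. WT replicate 1 overlapped both other genotypes, and the KO against WT log2 change was 0.37 (limma adjusted p = 0.151). Without WT replicate 1, Stat2 was called higher in KO (log2 change 0.50, limma adjusted p = 0.0416) and in HET (0.46, adjusted p = 0.0446). Irf9, the DNA-binding subunit of that complex, had 12.1, 10.4 and 11.9 FPKM in KO, 10.6, 11.5 and 12.5 in HET and 11, 8.20 and 10.7 in WT. Irf1, induced by interferon gamma and an activator of class I genes, had 12.5, 13.5 and 13.5 FPKM in KO, 9.997, 13.6 and 13.6 in HET and 12.7, 9.85 and 12.05 in WT. All 3 overlapped between genotypes. Irf7, the factor that amplifies type I interferon production, had 2.36, 2.11 and 2.30 FPKM in KO, 1.75, 2.55 and 2.44 in HET and 1.36, 1.69 and 4.56 in WT, so that WT replicate 3 was the highest library and WT replicate 1 the lowest.

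None of the 5 sensors and sensor regulators was called, with KO against WT log2 changes of -0.19 to 0.34. Trim25, a ubiquitin ligase that activates the RNA sensor RIG-I, had 15.2, 13.6 and 13.7 FPKM in KO, 15.2, 14.6 and 16.3 in HET and 13.5, 12.6 and 10.7 in WT. Its KO and HET libraries all lay above WT, and the log2 changes against WT were 0.20 in KO (limma adjusted p = 0.292) and 0.31 in HET (adjusted p = 0.0926). Eif2ak2, which encodes the double-stranded RNA kinase PKR, had 11.5, 10.5 and 11.03 FPKM in KO, 9.90, 10.8 and 10.9 in HET and 11.2, 9.12 and 9.99 in WT. Dhx58, which encodes LGP2, a RIG-I-like receptor without signalling domains, had 7.23, 9.48 and 8.38 FPKM in KO, 7.80, 9.95 and 10.1 in HET and 9.57, 8.01 and 11.7 in WT. Both overlapped between all genotypes. Zbp1, a sensor of Z-form nucleic acids, had 4.22, 5.09 and 3.94 FPKM in KO, 4.30, 4.56 and 4.52 in HET and 2.76, 2.88 and 4.31 in WT, so WT replicates 1 and 2 were low and WT replicate 3 lay with the other genotypes. Without that library, Zbp1 was called higher in KO (log2 change 0.50, limma adjusted p = 0.0437) and in HET (0.52, adjusted p = 0.0374).

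Of the 16 antiviral effectors, 8 were tested in vitro and Ifitm3 alone was called. Bst2, the tetherin that holds budding virions at the cell surface, had 87.4, 94.6 and 85.9 FPKM in KO, 71.0, 78.6 and 79.9 in HET and 77.2, 82.6 and 94.7 in WT. KO lay above HET without overlap (log2 change 0.22, limma adjusted p = 0.275), and WT overlapped both. Samhd1, which depletes the nucleotides that viral DNA synthesis needs, had 29.6, 26.0 and 28.1 FPKM in KO, 24.7, 27.7 and 28.5 in HET and 24.4, 24.3 and 25.1 in WT. KO lay above WT without overlap, by a log2 change of 0.17 (limma adjusted p = 0.262).

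The oligoadenylate synthetases make the signal that activates RNase L. Oas1g was too low for the filter and is described here because of its HET values, which were seen first. It had 0.178, 0.295 and 0.351 FPKM in KO, 1.14, 0.844 and 0.844 in HET and 0.310, 0.182 and 0.284 in WT. All HET libraries lay above every KO and WT library, and the HET mean was 3.65 times that of WT, while KO and WT overlapped. In a fit without the filter over 18807 genes, HET against WT gave 0.62 log2 units (SE 0.09, limma adjusted p = 0.0149) and KO against HET gave -0.61 (SE 0.09, adjusted p = 0.0151). Leaving out each of the 9 libraries in turn kept each call in 8 of 9 refits, the exceptions being WT replicate 2 for HET against WT (adjusted p = 0.0634) and KO replicate 1 for KO against HET (0.0685). Oas1a, with the same core letters in its promoter, had 9.40, 7.72 and 6.85 FPKM in KO, 8.63, 8.81 and 8.54 in HET and 6.50, 7.06 and 8.36 in WT. HET lay just above WT for Oas1a, by a log2 change of 0.22 (limma adjusted p = 0.273), and how reads were split between these paralogs is unknown.

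None of the 7 tested members of the ISG15 system and other induced genes was called. Ifi27, a small membrane protein of mitochondria and the nucleus, had 24.1, 28.1 and 23.8 FPKM in KO, 23.8, 27.8 and 29.9 in HET and 16.5, 17.3 and 27.4 in WT. WT replicate 3 lay among the other genotypes, and without it Ifi27 was called higher against WT in KO and in HET (HET log2 change 0.65, limma adjusted p = 0.00916). Ifi35, a partner of the cytokine-inducible protein NMI, had 22.6, 21.7 and 21.5 FPKM in KO, 23, 19.8 and 16.3 in HET and 15.1, 18.3 and 20.2 in WT, with KO above WT without overlap (log2 change 0.29, limma adjusted p = 0.232). Parp9, an ADP-ribosyltransferase that works with DTX3L, had 10.03, 9.97 and 10.3 FPKM in KO, 8.16, 9.17 and 10.2 in HET and 10.7, 9.54 and 10.9 in WT, with all genotypes overlapping. Isg15 itself, the ubiquitin-like modifier, had 5.005, 4.25 and 3.58 FPKM in KO, 4.29, 3.71 and 4.83 in HET and 3.26, 3.24 and 4.40 in WT, again with overlap.

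None of the 6 GTPases was called, with a median KO against WT log2 change of 0.29. Igtp, an immunity-related GTPase of the endoplasmic reticulum, had 9.15, 9.24 and 8.98 FPKM in KO, 7.21, 7.56 and 8.80 in HET and 5.98, 6.67 and 8.04 in WT. KO lay above both HET and WT without overlap, and the log2 change against WT was 0.37 (SE 0.11, limma adjusted p = 0.0964), with a call when WT replicate 3 was left out (0.47, adjusted p = 0.0413). Irgm1, which regulates autophagy and which stem cells are known to need, had 10.95, 10.2 and 10.6 FPKM in KO, 9.65, 10.6 and 10.5 in HET and 8.12, 10.2 and 12.3 in WT. Ifi47, another immunity-related GTPase, had 26.0, 25.3 and 26.1 FPKM in KO, 28.5, 30.03 and 27.9 in HET and 22.1, 26.7 and 30.9 in WT. WT libraries spanned the KO values of both genes. Gbp2, a guanylate-binding protein, had 4.84, 4.61 and 5.06 FPKM in KO, 3.16, 4.53 and 3.998 in HET and 2.77, 3.79 and 3.54 in WT. It had the largest positive log2 change of the tested members in KO against WT, 0.43 (SE 0.13, limma adjusted p = 0.0946), with KO above HET and WT without overlap.

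The 3 class I antigen processing members were not called. Psmb8, an immunoproteasome subunit, had 209, 238 and 209 FPKM in KO, 181, 191 and 187 in HET and 206, 194 and 219 in WT. HET was the lowest genotype, without overlap with KO or WT, and KO against HET gave a log2 change of 0.23 (limma adjusted p = 0.173). Psmb9, its partner subunit, had 76.7, 88.1 and 79.7 FPKM in KO, 62.2, 74.2 and 68.3 in HET and 78.4, 66.2 and 71.7 in WT. KO lay above HET without overlap and overlapped WT. Tap1, a subunit of the peptide transporter, had 64.3, 60.5 and 60.6 FPKM in KO, 54.1, 59.1 and 60.8 in HET and 61.7, 54.0 and 48.6 in WT, and every genotype overlapped.

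**Figure D3:**
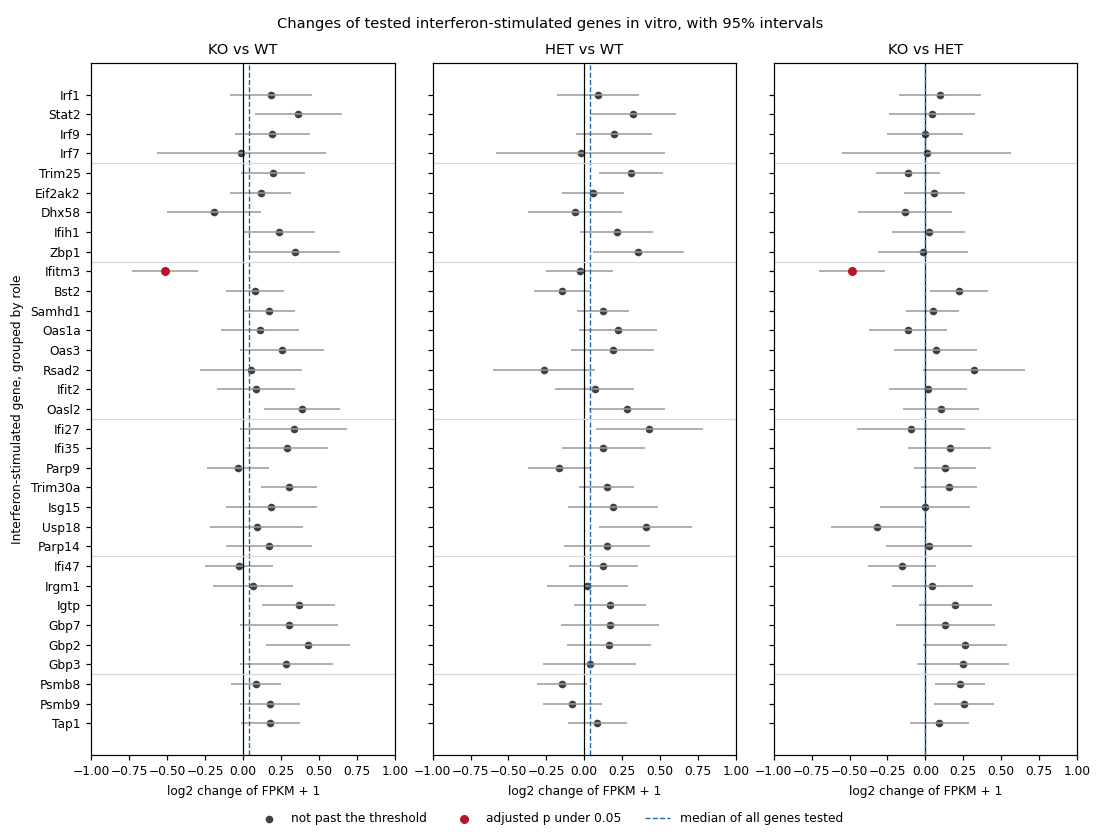
Log2 change of FPKM + 1 with its 95% limma interval for the 33 interferon-stimulated genes tested in vitro, in KO against WT, HET against WT and KO against HET, with the dashed line at the median of all genes tested. Ifitm3 (red point) was called in KO against WT at -0.51 and in KO against HET at -0.48, and the intervals of uncalled members lie between -0.62 and 0.78.

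Over the whole set, 8 of the 33 tested members had every KO library above every WT library (24.2%), against 13.8% of all genes, and 1, Ifitm3, had every KO library below (3.03%), against 9.09%. The 8 were Ifih1, Trim25, Samhd1, Oasl2, Ifi35, Trim30a, Igtp and Gbp2. Oasl2 reached 1 FPKM in KO and HET libraries alone and had 0.423, 0.557 and 0.647 in WT. It passed the filter through the genotypes where it was higher, so its place in the counts against WT is no support. The closest of the 8 to a call was Trim30a, a mouse TRIM protein that restrains inflammatory signalling. Trim30a had 9.34, 9.10 and 9.34 FPKM in KO, 7.67, 8.42 and 8.61 in HET and 7.79, 7.16 and 7.05 in WT (KO against WT log2 change 0.30, SE 0.08, limma adjusted p = 0.0791). At an unadjusted p under 0.05, 8 of 33 members passed in KO against WT (24.2%), against 19.4% of all genes.

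HET against WT in vitro tests the loss of a single copy. No member of 33 was called, against 3.68% of all genes in this comparison, of which 2.94% were higher and 0.735% lower. At an unadjusted p under 0.05 there were 6 members (18.2%), against 23.4% of all genes. The log2 changes ran from -0.27 to 0.43, with a median of 0.13 against 0.04 over all genes, and 25 of 33 were positive (75.8%), against 57.5%. HET lay above WT without overlap for 4 members (12.1%), Trim25, Oas1a, Oasl2 and Usp18, against 17.2% of all genes, and below it for 1, Psmb8 (3.03%), against 11.9%. Of these, Oasl2 passed the filter through KO and HET libraries alone. Usp18, the protease that removes ISG15 and dampens the type I receptor, had 1.51, 1.99 and 1.46 FPKM in KO, 2.19, 2.06 and 2.65 in HET and 1.38, 1.15 and 2.01 in WT (HET against WT log2 change 0.41, limma adjusted p = 0.115). All uncalled intervals lay within 1 log2 unit, from -0.60 to 0.78.

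KO against HET in vitro called 1 of 33 members (3.03%), Ifitm3, against 1.99% of all genes. It was lower in KO, as were 1.39% of all genes, and no member was called higher, against 0.598%. The median log2 change was 0.05, against -0.00 over all genes, and 23 of 33 were positive (69.7%), against 49.4%. This split depended on the scaling, since 17 of 36 tested members were positive once each library was rescaled to a common sum of FPKM. KO lay above HET without overlap for 6 members (18.2%), Bst2, Trim30a, Igtp, Gbp2, Psmb8 and Psmb9, against 11.3% of all genes, and below it for 3 (9.09%), Ifitm3, Usp18 and Ifi47, against 11.1%. At an unadjusted p under 0.05 there were 5 members (15.2%), against 13.2%. The Ifitm3 call in KO against HET was lost under 9 of the 17 alternatives, among them the removal of any KO or HET library (adjusted p = 0.0665 to 0.144).

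The spread of the members was uneven between libraries. WT replicate 2 lay above the 9-library mean for 1 of the 33 tested members, against 14 for WT replicate 1 and 17 for WT replicate 3. The KO libraries lay above it for 28, 20 and 24 members, and the HET libraries for 9, 27 and 26. HET replicate 1 was the lowest HET library for 25 of the 33, and WT replicate 3 was the highest WT library for 19. These counts were not made over all genes, so a trait of the members cannot be told apart from a shift of a whole library. The median SD of the members' log2 values was 0.09 among KO libraries, 0.13 among HET and 0.19 among WT, against 0.10, 0.10 and 0.14 over all genes in the same genotypes.

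**Figure D4:**
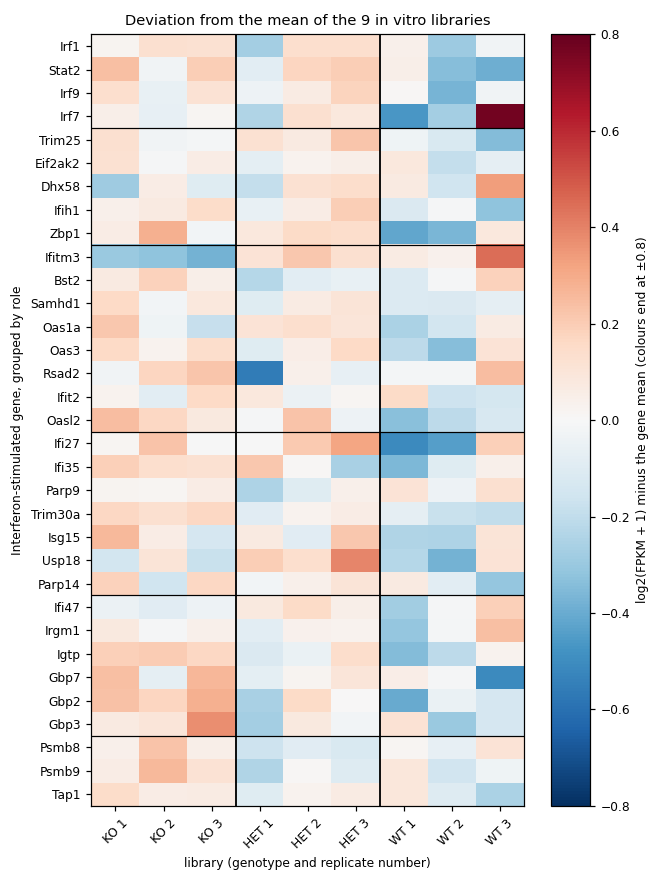
Log2(FPKM + 1) of the 33 tested interferon-stimulated genes in each in vitro library minus the gene's mean over the 9 libraries, in red where above and blue where below (colours end at 0.8). The Ifitm3 row is blue in all 3 KO columns, the WT replicate 2 column is above the mean for 1 gene of 33, and the HET replicate 1 column for 9. The same counts were not made over all genes.

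Other genes of the pathway were counted by list in KO against WT in vitro. None of 14 tested interferon receptors, kinases and STATs was called, none of 12 nucleic acid sensing genes upstream of interferon and none of 3 further interferon-inducible GTPases. Of 8 feedback genes, Socs3 was called higher, and 3 of 49 other induced genes were called higher, namely Sp110, Parp10 and Uba7, with none called lower. Of 19 further class I genes, Tap2 was called higher. Over all genes, 1.36% were called higher and 1.63% lower. The medians of these lists lay between 0.06 and 0.26, against 0.04 over all genes.

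Tap2, the partner of TAP1 in the peptide transporter, had 158, 159 and 157 FPKM in KO, 132, 132 and 131 in HET and 117, 121 and 110 in WT. The genotypes did not overlap at all, and KO rose against WT by 0.44 log2 units (SE 0.06, limma adjusted p = 0.00413), a call kept under all 17 alternatives. Socs3, an inhibitor of cytokine receptor kinases, had 34.5, 32.1 and 34.0 FPKM in KO, 28.0, 35.3 and 40.7 in HET and 11.1, 16.6 and 19.8 in WT. Both KO (log2 change 1.07, limma adjusted p = 0.0105) and HET (1.103, adjusted p = 0.00654) rose against WT, with the same WT libraries in both. Parp10, an ADP-ribosyltransferase, had 14.3, 13.0 and 13.9 FPKM in KO, 15.8, 14.5 and 15.1 in HET and 10.8, 9.58 and 9.64 in WT, above WT in both (0.42 and 0.55, limma adjusted p = 0.0228 and 0.00414). Sp110, a nuclear body protein, had 43.1, 48.3 and 42.5 FPKM in KO, 36.9, 38.3 and 34.6 in HET and 33.1, 35.5 and 32.5 in WT, with every KO library and HET replicates 1 and 2 above WT (KO against WT 0.39, limma adjusted p = 0.0224). Uba7, the activating enzyme for ISG15, had 72.8, 62.0 and 74.0 FPKM in KO, 59.4, 64.4 and 60.3 in HET and 56.0, 55.4 and 48.5 in WT. Its call in KO against WT (0.38, limma adjusted p = 0.0431) was lost under 10 of the 17 alternatives. The KO against WT calls of Parp10, Sp110 and Socs3 were lost under 5, 3 and 2 of them.

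In HET against WT in vitro, 1 of 14 receptors, kinases and STATs was called (Tyk2, higher), 1 of 12 sensing genes (Ikbke, higher), 1 of 8 feedback genes (Socs3, higher), 5 of 49 other induced genes (higher) and none of 19 further class I genes or 3 further GTPases. Over all genes, 2.94% were called higher. Ikbke, a kinase that activates IRF3, had 20.03, 20.6 and 22.3 FPKM in KO, 20.9, 27.9 and 31.6 in HET and 16.1, 14.4 and 13.4 in WT. HET rose against WT by 0.81 log2 units (SE 0.13, limma adjusted p = 0.00587), and KO against WT gave 0.49 (adjusted p = 0.0617). Tyk2, the kinase of the type I receptor, had 20.2, 17.3 and 18.1 FPKM in KO, 20.3, 20.5 and 21.2 in HET and 16.8, 15.8 and 13.3 in WT, and its call (0.42, limma adjusted p = 0.0353) was lost under 9 of 17 alternatives. Of the 5 other induced genes, Bst1, an ectoenzyme of myeloid cells, had 2.22, 0.787 and 0.868 FPKM in KO, 5.77, 7.68 and 6.07 in HET and 1.54, 1.41 and 1.49 in WT (HET against WT 1.59, limma adjusted p = 0.000968). All HET libraries lay above the rest. Znfx1, a helicase-like protein that binds viral RNA, had 2.67, 2.02 and 2.35 FPKM in KO, 2.74, 2.64 and 2.77 in HET and 1.64, 1.91 and 1.71 in WT, and its call (0.43, limma adjusted p = 0.0404) was lost under 12 of the 16 alternatives it was tested in. The others were Ifitm6, Parp10 and Slfn2.

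In KO against HET in vitro, 2 of 49 other induced genes were lower in KO, Bst1 and Ifitm6, and 2 were higher, Ube2l6 and Mlkl. Of 19 further class I genes, H2-T23 was higher, and none was called of 14 receptors, kinases and STATs, 12 sensing genes, 8 feedback genes or 3 further GTPases. Over all genes, 0.598% were called higher and 1.39% lower. Ube2l6, the conjugating enzyme for ISG15, had 15.6, 13.3 and 16 FPKM in KO, 7.601, 9.49 and 10.3 in HET and 11.1, 11.97 and 14.1 in WT (KO against HET log2 change 0.66, limma adjusted p = 0.0153). HET lay below both other genotypes, and the call was lost under 4 of 17 alternatives. H2-T23, the nonclassical class I gene for Qa-1, had 211, 202 and 217 FPKM in KO, 164, 159 and 160 in HET and 162, 176 and 193 in WT (0.38, limma adjusted p = 0.0199). Mlkl, the effector of necroptosis, had 20.5, 21.5 and 21.7 FPKM in KO, 15.8, 16.1 and 16.6 in HET and 19.3, 17.5 and 16.2 in WT (0.37, limma adjusted p = 0.0359). In both genes KO stood above HET and WT, and the KO against HET call was lost under 6 of 17 alternatives for H2-T23 and under 10 for Mlkl.

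Markers of other cells moved with the genotypes in vitro. The summed level of 14 monocyte and macrophage markers was 450 to 609 FPKM in KO, 711 to 875 in HET and 308 to 402 in WT, without overlap, while C1qa and Ms4a7 were listed above 0 in 1 library each. Of the 8 tested, 5 rose in HET against WT, 1, Ccr2, rose in KO against WT, and 4 were called lower in KO against HET. The sum of 12 neutrophil markers was 3651 to 6542 FPKM in KO, 5326 to 7685 in HET and 3795 to 5106 in WT, with 4 of the 11 tested called higher in HET against WT, none in KO against WT, and 2 lower in KO against HET. The sum of 10 plasmacytoid dendritic cell markers, the type known for high interferon output, was 28.1 to 33.8 in KO, 27.0 to 33.4 in HET and 26.9 to 33.3 in WT. In KO against WT, 1 of 11 erythroid and megakaryocyte markers was called lower and 2 of 10 stem and progenitor markers higher. Y-linked Ddx3y had 7.10, 5.48 and 6.80 FPKM in KO, 8.91, 9.14 and 11.7 in HET and 3.82, 3.35 and 2.39 in WT, with every KO and HET library above every WT library. Of the 5 sex-linked RNAs tested in vitro, 3 were called higher in KO against WT and none lower. In HET against WT, 4 were called higher and 1 lower, and in KO against HET 1 was called higher and 1 lower. Over all genes, 1.36% were called higher and 1.63% lower in KO against WT. Those shares were 2.94% and 0.735% in HET against WT, and 0.598% and 1.39% in KO against HET. The part of the cell markers and of the sex-linked RNAs in the values of Ifitm3, Ifitm6, Oas1g, Bst1 and the other genes was not tested.

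In bone marrow the same genes were measured far less evenly. Only 6 of the 39 members in the table, Ifitm3, Psmb8, Psmb9, Samhd1, Trim30a and Eif2ak2, were above 0 in all 8 libraries. The KO libraries held 20, 30 and 31 members above 0, the HET libraries 13 and 17, and the WT libraries 26, 31 and 28, and 17 members were listed at 0 in both HET libraries. Over all genes of the table, 6560, 8519 and 8405 were above 0 in KO, 3633 and 5209 in HET and 8526, 8303 and 8194 in WT. KO replicate 1 and the HET libraries were thus low over the whole table too. An exact 0 here need not mean absence, because a gene that every cell uses, Tbp, was also listed at 0 in KO replicate 1 and in both HET libraries, so the value of each library is given.

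**Figure D5:**
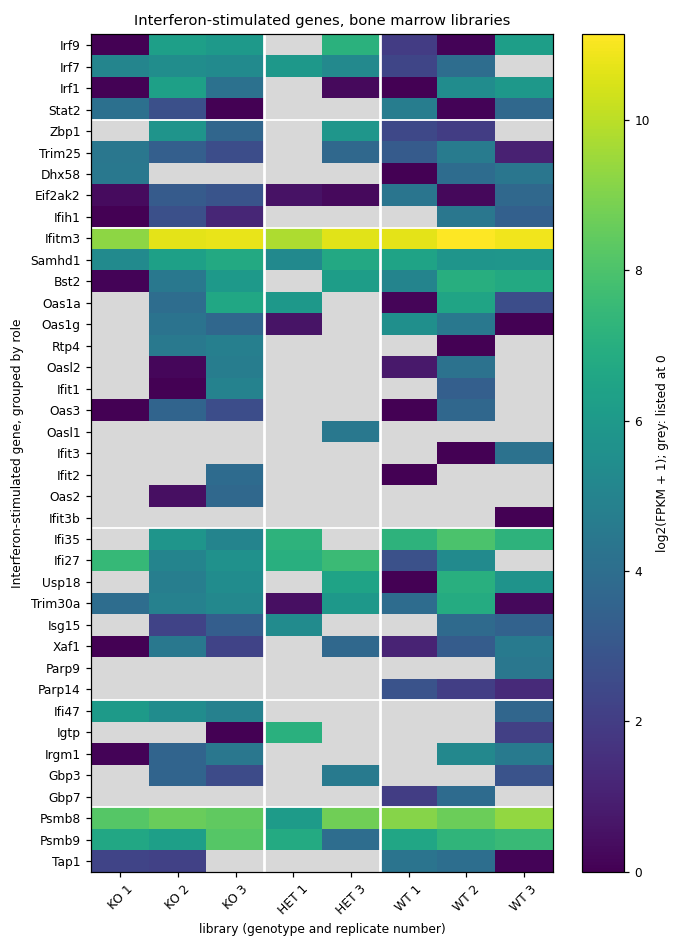
Level of the 39 interferon-stimulated genes of the bone marrow table in each library, in log2(FPKM + 1) by colour, with genes listed at 0 in grey and grouped by role. The 2 HET columns hold 13 and 17 genes above 0, against 20 to 31 in the KO columns and 26 to 31 in the WT columns, and Ifitm3 is the brightest row at 614 to 2252 FPKM. Over all genes, 3633 and 5209 were above 0 in HET, 6560 to 8519 in KO and 8194 to 8526 in WT.

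No member of 28 was called in bone marrow. In KO against WT none was called, against 0% of all genes, and 4 of 28 members (14.3%) had an unadjusted p under 0.05, against 5.11% of all genes. In HET against WT none was called, against 0.262% of all genes, with 4 members at an unadjusted p under 0.05 (14.3%), against 12.4%. In KO against HET none was called, against 0.166%, with 1 member at an unadjusted p under 0.05 (3.57%), against 11.3%. The median half-width of the members' 95% intervals was 3.42 log2 units in KO against WT and 3.83 in the comparisons with HET, so a change of several fold in the typical member was not detectable. Abundant members were measured more closely, with an interval of -1.52 to 0.19 for Ifitm3 in KO against WT. The log2 change was positive for 11 of 28 members in KO against WT (39.3%, against 43.6% of all genes), for 6 in HET against WT (21.4%, against 29.4%) and for 23 in KO against HET (82.1%, against 66.8%). The KO against WT split turned round without KO replicate 1, where 19 of 27 members were positive with a median of 0.50, against -0.57 with all libraries. The comparisons with HET carried a shift of the whole table, since the median over all genes was -0.99 in HET against WT and 0.83 in KO against HET. No gene of the pathway lists was called in bone marrow either. Of the 28 members tested, Parp14 passed the filter through its WT libraries alone and had to differ. Without it, 3 of 27 members had an unadjusted p under 0.05 in KO against WT, 3 in HET against WT and 1 in KO against HET.

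The abundant members were Ifitm3 and the immunoproteasome. Ifitm3 had 614, 1638 and 1720 FPKM in KO, 868 and 1589 in HET and 1633, 2252 and 1891 in WT. KO and WT overlapped, KO replicate 1 and HET replicate 1 were low, and the KO against WT log2 change was -0.67 (limma adjusted p = 0.993). Psmb8 had 293, 384 and 344 FPKM in KO, 67.3 and 425 in HET and 550, 394 and 637 in WT. KO lay below WT without overlap (log2 change -0.61, limma adjusted p = 0.995). Psmb9 had 101, 76.6 and 289 FPKM in KO, 112 and 14.9 in HET and 94.9, 153 and 188 in WT, and Samhd1 had 39.4, 79.7 and 107 FPKM in KO, 38.3 and 104 in HET and 87.4, 55.4 and 56.5 in WT, each overlapping.

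Other abundant members swung between 0 and high values within a genotype. Ifi35 had 0, 54.8 and 31.5 FPKM in KO, 144 and 0 in HET and 146, 250 and 146 in WT. Bst2 had 0.0757, 20.8 and 64.9 FPKM in KO, 0 and 71.7 in HET and 31.9, 125 and 106 in WT. Ifi27 had 177, 31.4 and 49.1 FPKM in KO, 129 and 194 in HET and 5.80, 39.7 and 0 in WT. KO lay below WT without overlap for Ifi35, HET lay above WT without overlap for Ifi27, and neither was called (limma adjusted p = 0.993 in KO against WT for Ifi35 and 0.258 in HET against WT for Ifi27). Irf9 had 0.0227, 77.2 and 61.3 FPKM in KO, 0 and 138 in HET and 2.92, 0.0864 and 73.8 in WT, and so overlapped widely.

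KO lay above WT without overlap for 2 of 28 members (7.14%), against 4.11% of all genes, and below it for 3 (10.7%), against 8.14%. The 2 higher were Ifi47 and Irf7. Ifi47 had 65.5, 41.9 and 29.0 FPKM in KO, was listed at 0 in both HET libraries and had 0, 0 and 11.8 in WT (KO against WT log2 change 4.24, limma adjusted p = 0.668). Irf7 had 32.9, 43.4 and 38.7 FPKM in KO, 59.8 and 37.2 in HET and 4.06, 14.8 and 0 in WT (3.18, adjusted p = 0.878). The lower ones were Psmb8, Ifi35 and Parp14, a macro-domain ADP-ribosyltransferase listed at 0 in all KO and HET libraries and at 6.28, 3.23 and 1.496 FPKM in WT. Without Parp14 they were 2 of 27. The sum of 12 neutrophil markers did not overlap between KO and WT in bone marrow, at 135033 to 210859 FPKM in KO, 130224 to 131049 in HET and 4786 to 54242 in WT, and its part in these values was not tested. HET lay above WT without overlap for 2 of 28 members (7.14%), against 5.8% of all genes, and below it for 6 (21.4%), against 24.3%, or 5 of 27 without Parp14. KO lay above HET for 5 (17.9%), against 20.7%, and below it for none, against 7.27%.

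The KO against WT change was compared between the in vitro and bone marrow sets in a joint fit over 6915 genes, 26 of them members. This fit takes a shared spread per gene for both sets. The members' median SD was 0.09 to 0.19 within in vitro genotypes and 0.81 to 2.14 within those of bone marrow. The SE of the Ifi47 difference was 1.16, below the 1.42 of its bone marrow change alone, so p-values here can be too small and calls too many. No member was called for a difference between the sets, against 0.738% of all genes (0.477% higher and 0.26% lower in vitro), and 16 of 26 differences were positive (61.5%), against 57.7%. Without bone marrow KO replicate 1, 9 of 25 were positive. At an unadjusted p under 0.05 there were 3 members (11.5%), against 7.85%, or 2 of 25 without Parp14. For Ifitm3, the in vitro change minus the bone marrow change was 0.15 log2 units (SE 0.46, limma adjusted p = 0.986). The differences of Ifi47 (-4.27, adjusted p = 0.145) and Irf7 (-3.19, adjusted p = 0.348) rest on bone marrow values that hold the zeros given above, and that of Parp14 was set by the filter.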

How the data were processed

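Bulk RNA sequencing was run on sorted mouse bone marrow cells. Per the labels' protocols, RNA came from a TRIzol extraction and went into a VAHTS Universal library kit. Per the submitters' processing notes, reads belong to build mm10, and aligner, counter and strand option were not given in the sources used here. Values are the authors' FPKM, 1 deposited table per set. They hold no raw counts, and each table may carry its own scaling, so genotypes were compared within a table. Groups came from the sample titles. The submitters name 3 mice per genotype without tying each library to a mouse, so each p-value reflects only how these libraries vary, which may be technical.

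Limma 3.58.1 in R 4.3.3 (statmod 1.5.0) was fitted to log2(FPKM + 1) with all genotypes of a table, an intensity trend, robust moderation and no block, after keeping genes with at least 1 FPKM in 3 libraries. A log2 change on this scale understates that of low genes. The fits were checked on simulated data. Depth was estimated from low FPKM values of single-exon genes, 25 to 118 values per library, and it entered no test. It was chosen so that a high share of them lay within 0.1 of a whole fragment. The share reached, 79.2 to 89.7%, is therefore no check on the estimate. Gene positions are those of RefSeq on GRCm38.p6.

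The members and the gene lists were chosen with earlier results of these data known. By rule, the text gives every library's value for called members (at most 12 per comparison), for the 3 most abundant members of each of 6 roles in vitro, for the 8 most abundant in bone marrow, and for up to 4 called genes per pathway list and comparison. Irf7, Zbp1, Isg15, Gbp2, Trim30a, Usp18, Oas1a, Oas1g, the Ifitm paralogs, Slfn2 and, in bone marrow, Ifi47, Irf7 and Parp14 were added after their values were seen. The alternatives were another pseudocount, other filters, 3 other scalings, a replicate block, a fit of the compared genotypes only and leaving out each library.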

Additional observations from a re-analysis of the deposited data

How the results depend on the processing

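Each count of called members was recomputed under up to 8 alternative settings and without each library. Single-gene changes were followed for members with an unadjusted p under 0.05 and for up to 4 called genes per pathway list and comparison. None of these reversed, and the direction of the other genes named here was not followed. The members' median did change sign in bone marrow KO against WT (-0.79 to 0.50) and in the difference between the sets (-0.33 to 0.71), in both without bone marrow KO replicate 1, and lay at -0.00 in KO against HET in vitro with rescaling to a common sum, against 0.05. In vitro, KO against WT called 1 member, 0 without the filter and 0 in a fit of those genotypes only, and 0 to 4 when a library was left out. It called 0 without KO replicate 1 or 3, Ifitm3 and Stat2 without WT replicate 1, and Ifi27, Igtp and Zbp1 beside Ifitm3 without WT replicate 3. HET against WT called 0, and 1 without the filter and 1 with rescaling to a common sum (Oas1g in both), and 0 to 2 when a library was left out (Stat2 without WT replicate 1, Ifi27 and Zbp1 without WT replicate 3). KO against HET called 1, but 0 with median-ratio size factors, 2 with rescaling (Ifitm3 and Oas1g), and 0 to 1 when a library was left out. In bone marrow, KO against WT called 0 throughout, and HET against WT and KO against HET called 0 to 1 when a library was left out (Psmb8, without HET replicate 3). That refit leaves 1 HET library, which is assumed to vary like the other groups. The difference between the sets called 0, but 1 with a pseudocount of 0.1 and 1 with rescaling (Parp14), and 0 to 1 when a library was left out: Parp14, which the filter set, without either bone marrow HET library, Irf7 without bone marrow WT replicate 2 and Ifi47 without bone marrow WT replicate 3. The cause was not tested.

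Deviations of same-numbered in vitro libraries of different genotypes correlated at -0.303 to 0.181 (9 pairs), against -0.331 to 0.374 for differently numbered ones (18 pairs). The labels state no pairing, and so few libraries per genotype cannot exclude one. With a replicate block, KO against HET called 0 members, KO against WT still 1 and the rest 0. The block took the number of calls over all genes from 325 to 172 in KO against WT and from 400 to 234 in HET against WT. It went from 19 to 0 in bone marrow HET against WT, from 12 to 0 in bone marrow KO against HET and from 51 to 34 for the difference between the sets.

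Counts over all genes moved too. KO against WT in vitro called 325 genes, 152 without the filter, 176 in its own fit and 66 to 475 without a library. HET against WT called 400, 250 without the filter, 267 in its own fit and 84 to 628 without a library. KO against HET called 216, 136 with a filter at 5 FPKM and 73 to 344 without a library. In bone marrow, HET against WT called 19, 35 with a pseudocount of 0.1, 12 with quantile normalization, 0 in its own fit and 0 to 323 without a library, and KO against HET called 12, 31, 7, 0 and 0 to 330 under the same, with 6 without the filter. KO against WT in bone marrow called 0, 2 with quantile normalization and 0 to 4 without a library. The difference between the sets called 51, 30 with a filter at 5 FPKM, 23 with quantile normalization and 19 to 135 without a library. These fits take a shared spread for both sets, so their counts can be too high. Quantile normalization moved the median log2 change of all genes in bone marrow HET against WT to -0.03, against -0.99 without it, and the members' median to -0.37, against -1.24.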

Other observations

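Ifi204, a DNA sensor of the interferon-inducible p200 family, had values shaped like those of Oas1g, with 0.370, 0.155 and 0.280 FPKM in KO in vitro libraries, 1.03, 1.11 and 0.796 in HET and 0.247, 0.152 and 0.328 in WT. All HET libraries lay above every other library. Too few libraries reached 1 FPKM for the filter, so Ifi204 was not tested, and it was chosen after its values were seen.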
